A study of Homo sapiens and Mus musculus with 24 samples.

Results

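The clustered protocadherins were examined in human Caco-2 cells, a colorectal adenocarcinoma line used as a model of the intestinal epithelium. Members were all genes with a symbol beginning PCDHA, PCDHB or PCDHG on chromosome 5, with pseudogenes left out. This gave 53 of the 58051 gene identifiers in the count tables, of which 15 belonged to the PCDHA, 16 to the PCDHB and 22 to the PCDHG cluster. RNA sequencing counts were available for 4 libraries of WT cells, 4 of ΔDNMT3A cells, 3 of DNMT3A1 cells and 4 of cells labelled DNMT3A2. ΔDNMT3A is a single clone in which the de novo DNA methyltransferase DNMT3A was deleted with CRISPR-Cas9. DNMT3A1 and DNMT3A2 are clones derived from ΔDNMT3A, so they carry the same deletion, and each received a TY1-tagged construct of one DNMT3A isoform on a piggyBac vector with puromycin selection. WT cells are Caco-2 cells labelled wild type, and the labels do not say whether they were cloned or transfected. Genotype and clone therefore cannot be told apart in any comparison, and p-values measure only the spread between libraries of a line, which the labels do not assign to separate cultures.

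The clusters encode cadherin-like cell surface proteins and lie one after another on the same arm of the chromosome. Every variable first exon has its own promoter, and in the PCDHA and PCDHG clusters it is spliced to constant exons shared by the whole cluster, whereas PCDHB genes lack shared constant exons. Neurons switch on individual variable exons in different combinations, and the proteins they encode recognise identical copies on neighbouring membranes. Promoter choice is known to depend on DNA methylation and on the insulator protein CTCF, which binds a conserved element in most of the variable promoters. The family is best known from the nervous system, and methylation of its promoters has been described in several tumour types.

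That conserved element is visible in the RefSeq promoter sequences of the genome build GRCh38.p14, which covered 47 of the 53 members. The stretches below lie upstream of the annotated start on the plus strand of chromosome 5, 5′ to 3′. They cover abundant members of the PCDHB and PCDHG clusters and members with few or no counts. Members without the searched word there are not shown. Capitals mark the word searched in each cluster, namely GGCGCTG for PCDHB, CGCCGCTG for PCDHG and TGTCGCTG for PCDHA, all of which contain CGCT.
PCDHB2 (chr5:141094528-141094577): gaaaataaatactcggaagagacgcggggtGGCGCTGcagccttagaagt
PCDHB13 (chr5:141213849-141213915): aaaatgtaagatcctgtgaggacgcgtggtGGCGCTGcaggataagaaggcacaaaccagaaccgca
PCDHB3 (chr5:141100377-141100443): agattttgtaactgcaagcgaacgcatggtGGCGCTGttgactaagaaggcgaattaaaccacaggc
PCDHB10 (chr5:141192283-141192349): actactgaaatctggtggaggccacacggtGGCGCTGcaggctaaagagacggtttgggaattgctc
PCDHGB5 (chr5:141397846-141397913): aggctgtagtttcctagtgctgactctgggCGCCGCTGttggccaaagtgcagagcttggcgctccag
PCDHGA9 (chr5:141402697-141402764): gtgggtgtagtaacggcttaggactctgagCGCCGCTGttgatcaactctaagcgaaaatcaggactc
PCDHGB6 (chr5:141407907-141407974): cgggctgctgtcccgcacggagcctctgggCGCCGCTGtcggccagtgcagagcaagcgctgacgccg
PCDHGA10 (chr5:141412914-141412981): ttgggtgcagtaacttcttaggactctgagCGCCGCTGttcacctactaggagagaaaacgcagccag
PCDHA1 (chr5:140786069-140786135): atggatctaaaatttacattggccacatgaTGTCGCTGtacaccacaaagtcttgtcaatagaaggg
PCDHA10 (chr5:140855824-140855882): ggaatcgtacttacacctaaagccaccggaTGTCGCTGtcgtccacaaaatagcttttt

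Searched on both strands of the 300 promoter bases, GGCGCTG was found in 12 of the 14 PCDHB genes with a sequence, against 11.5% of all 35116 promoters. CGCCGCTG was found in 10 of 20 PCDHG genes, against 4.29% of all promoters. TGTCGCTG was found in 6 of 13 PCDHA genes, against 0.683%. The shorter CGCT stood in 46 of 47 members but also in 70.0% of all promoters. Because only stretches that hold the word are printed, they cannot show how often it is absent. It was not found upstream on the plus strand in PCDHB14, an expressed member, or in PCDHGA2. Some expressed and some near-silent members carried their word. PCDHB3 and PCDHB10 hold the same 7 letters as PCDHB2. The members' promoters held a median of 7 CpG dinucleotides, against 14 over all promoters, and ranged from 2 to 27.

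The targeted gene was examined first. DNMT3A stood at 63.6, 61.9, 67.1 and 65.7 CPM (counts per 1000000, on library sizes scaled by TMM) in WT. It stood at 22.3, 20.7, 20.6 and 19.3 CPM in ΔDNMT3A, a log2 fold change of -1.65 (SE 0.0428, adjusted p = 4.3e-20 by edgeR's quasi-likelihood test). DNMT3A1 libraries held 36.6, 39 and 38.3 CPM. The libraries labelled DNMT3A2 held 20.1, 22.3, 23.5 and 21.7 CPM and overlapped those of ΔDNMT3A (log2 fold change 0.07, SE 0.0574, adjusted p = 0.272). Re-expression of DNMT3A was therefore not visible as gene-level counts in the cells labelled DNMT3A2, and they are named by their label throughout. The paper reports both isoforms at the protein level, by immunoblot and by immunofluorescence in the nuclei. Protein was not measured in these counts. Library totals ranged from 22104408 to 42161299 counts, so that 3 counts, taken here as the floor of detection, equal 0.0716 to 0.138 CPM.

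Expression of the family was low and uneven. PCDHA was at or near the floor in every line, PCDHB was carried mainly by PCDHB2, and PCDHG was carried mainly by PCDHGB5 and PCDHGA10. Fragments in the shared constant exons cannot be assigned to one gene and were not counted, so only the exon bases unique to a member, a median of 53.5% for PCDHA and 56.2% for PCDHG, contribute to its level. PCDHB members are unique over at least 90.6% of their exon bases. Levels are therefore ranked between genes as CPM per kb of unique exon, whereas the part of a gene in a cluster's summed counts also grows with its countable length.

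**Figure D1:**
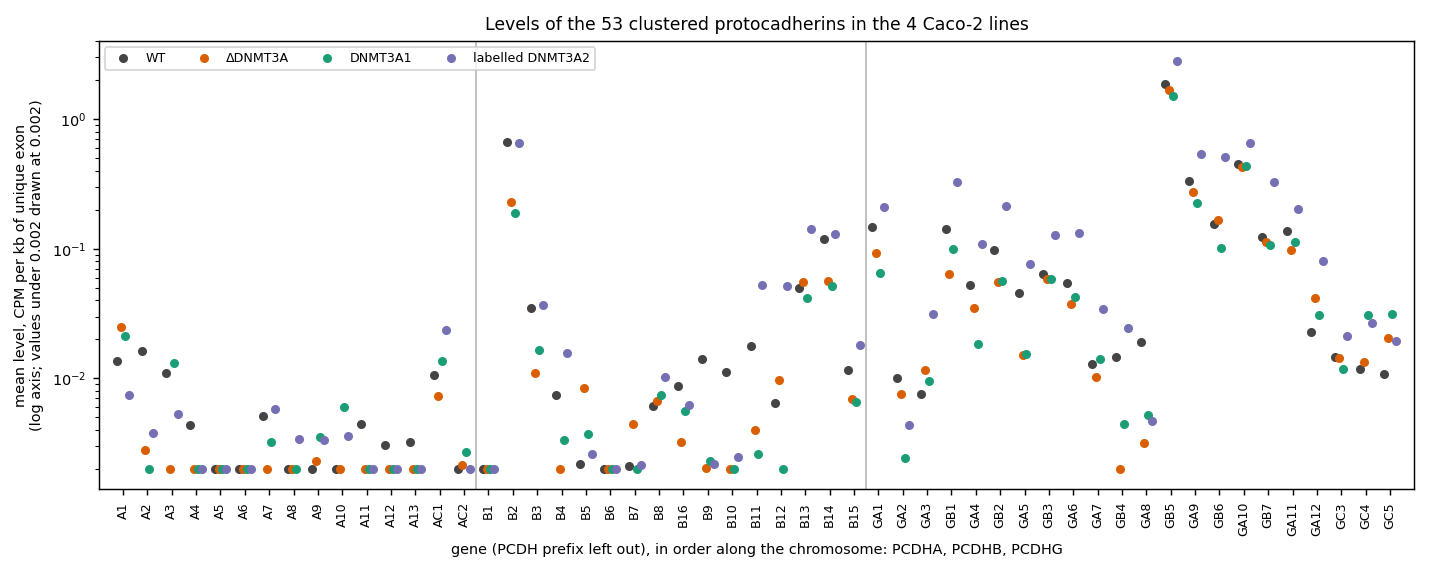
Mean level of each of the 53 members in CPM per kb of unique exon (log axis; values under 0.002 are drawn at 0.002), in order along chromosome 5, with 1 point per line and grey lines between the PCDHA, PCDHB and PCDHG clusters. PCDHGB5 stood highest in all 4 lines, and PCDHA members stayed near the bottom of the axis.

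None of the 15 PCDHA members exceeded 5 counts in any library, and 10 of them never exceeded 3. Summed over the cluster, PCDHA gave 0.129 to 0.383 CPM in WT, 0.0676 to 0.266 in ΔDNMT3A, 0.131 to 0.366 in DNMT3A1 and 0.158 to 0.318 across the libraries labelled DNMT3A2. These ranges overlapped in every pair of lines, and no PCDHA gene passed the filter on low counts. The constitutive-type members PCDHAC1 and PCDHAC2, which neurons express without the random choice made for other members, did not exceed 4 and 1 counts. As a measure of background at silent genes, 395 olfactory receptor genes were read in the same way. Their median was 0 CPM per kb and their 95th percentile was 0.00732 in WT, 0.00775 in ΔDNMT3A, 0.0106 in DNMT3A1 and 0.00815 across the libraries labelled DNMT3A2. In that order, 4, 1, 3 and 1 of the 15 PCDHA genes stood above that percentile.

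PCDHB was less uniform. PCDHB members above the olfactory receptor percentile numbered 10 of 16 in WT, 6 in ΔDNMT3A, 4 in DNMT3A1 and 9 across the libraries labelled DNMT3A2, and 7 of the 16 never exceeded 3 counts. PCDHB2 alone held 68.1% ± 4.02 (SD, n = 4) of the PCDHB counts in WT, 57.6% ± 10.9 (n = 4) in ΔDNMT3A, 55.9% ± 5.95 (n = 3) in DNMT3A1 and 56.3% ± 2.4 (n = 4) in the libraries labelled DNMT3A2. Per unique kb it stood highest of the cluster too, at 0.667 ± 0.0999 CPM per kb in WT (SD, n = 4), and PCDHB13 and PCDHB14 followed it in every line without a common order. Both reached 4 or more counts in at least 14 of the 15 libraries.

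In PCDHG, 22 of 22 members in WT and 18 to 20 in the other lines stood above the olfactory receptor percentile. Per unique kb, PCDHGB5, PCDHGA10 and PCDHGA9 held ranks 1, 2 and 3 among the 22 members in each of the 4 lines. PCDHGB5 stood at 1.86 ± 0.196 CPM per kb in WT (SD, n = 4), PCDHGA10 at 0.455 ± 0.0646 and PCDHGA9 at 0.335 ± 0.0696. The levels of PCDHGA10 and PCDHGA9 lay within about their summed spread of each other, whereas PCDHGB5 lay far above both. PCDHGB5, PCDHGA9, PCDHGB6 and PCDHGA10 are neighbours, being members 13 to 16 in the order of the cluster. The constitutive-type PCDHGC3, PCDHGC4 and PCDHGC5 at the end of the cluster did not exceed 4, 5 and 4 counts in any library.

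**Figure D2:**
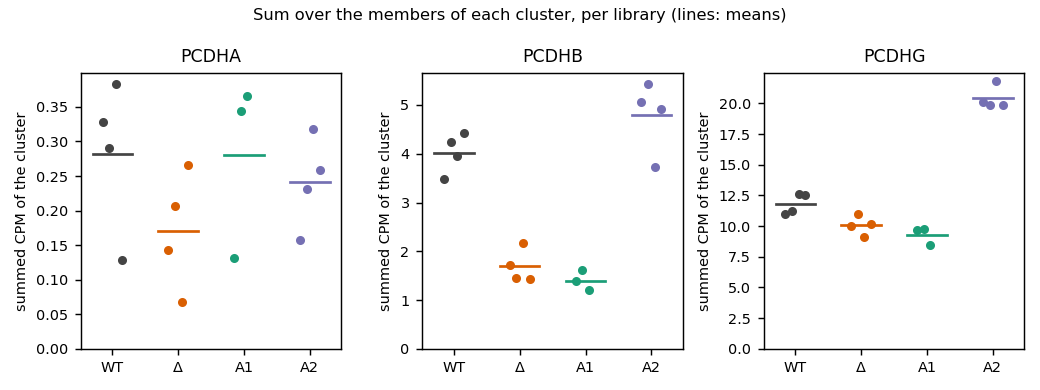
Sum of CPM over the members of each cluster in every library (points) with the mean of each line (horizontal lines); Δ is ΔDNMT3A, A1 is DNMT3A1 and A2 is the cells labelled DNMT3A2. The PCDHB sum was lowest in ΔDNMT3A and DNMT3A1, and the PCDHG sum was highest in the libraries labelled DNMT3A2, at 19.9 to 21.8 CPM.

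Cluster sums described the lines as follows. The PCDHB sum ranged from 3.49 to 4.42 CPM in WT, from 1.43 to 2.16 in ΔDNMT3A, from 1.21 to 1.61 in DNMT3A1 and from 3.72 to 5.44 across the libraries labelled DNMT3A2. WT and the libraries labelled DNMT3A2 overlapped, and both lay above ΔDNMT3A and DNMT3A1. The PCDHG sum ranged from 11 to 12.6 CPM in WT, from 9.12 to 11 in ΔDNMT3A, from 8.45 to 9.76 in DNMT3A1 and from 19.9 to 21.8 across the libraries labelled DNMT3A2. The last line stood apart from the other 3. In bulk RNA, fewer cells that transcribe a gene and less RNA per cell cannot be told apart.

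The first comparison asked how the family differed after loss of DNMT3A. Only 9 of the 53 members had enough counts to be tested between ΔDNMT3A and WT. PCDHB2 and PCDHB14 were downregulated and no member was upregulated. Thus 2 of 9 passed an adjusted p of 0.05, against 62.2% of all 16654 genes tested, and 2 of 9 were called lower, against 31.0%. The share of members called was not above that background. PCDHB14 and PCDHGA1 were not tested between DNMT3A1 and ΔDNMT3A, so they passed the filter here through the WT libraries. Of the 7 members tested in every comparison, 1 was called, with a median log2 fold change of -0.17, and that of all genes was -0.005. Without WT replicate 1, PCDHGA1 (-0.73, adjusted p = 0.0372) and PCDHGB1 (-1.25, adjusted p = 0.00893) were also called lower, which made 4.

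PCDHB2 (chr5:141094578-141098703, ENSG00000112852) stood at 2.27, 3.08, 2.55 and 3.11 CPM in WT. In ΔDNMT3A it stood at 0.931, 0.977, 0.946 and 0.93 CPM. All 4 ΔDNMT3A libraries lay below all WT libraries and close to one another, and the log2 fold change was -1.55 (SE 0.152, adjusted p = 3.73e-09), a 2.93-fold lower level. Within the 5th sequencing lane the change was -1.48 and within the 6th it was -1.61. PCDHB14 stood at 0.463 to 0.701 CPM in WT and at 0.148 to 0.473 CPM in ΔDNMT3A, with 1 ΔDNMT3A library inside the WT range (log2 fold change -1.08, SE 0.328, adjusted p = 0.00606). Its change was -1.31 within the 5th lane and -0.85 within the 6th, where it did not pass (adjusted p = 0.146).

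The abundant PCDHG members were less affected. PCDHGB5 (chr5:141397987-141512979, ENSG00000276547) stood at 5.29, 4.2, 5.13 and 5.3 CPM in WT and at 4.06, 4.91, 4.39 and 4.68 CPM in ΔDNMT3A. The libraries overlapped through WT replicate 2, and the log2 fold change was -0.17 (SE 0.0949, adjusted p = 0.131). Without that replicate PCDHGB5 was called lower (-0.24, adjusted p = 0.037). PCDHGA10 (chr5:141412987-141512979) stood at 1.64, 2.28, 1.98 and 2.21 CPM in WT and at 2.08, 1.72, 1.96 and 1.83 CPM in ΔDNMT3A, again with overlap (log2 fold change -0.10, SE 0.139, adjusted p = 0.546). PCDHGA1, the first gene of the cluster, came closest to the threshold among the others (log2 fold change -0.63, SE 0.277, adjusted p = 0.0514). PCDHGA9, PCDHGB6, PCDHGB7 and PCDHGA11 had log2 fold changes between -0.46 and 0.08 and did not pass.

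**Figure D3:**
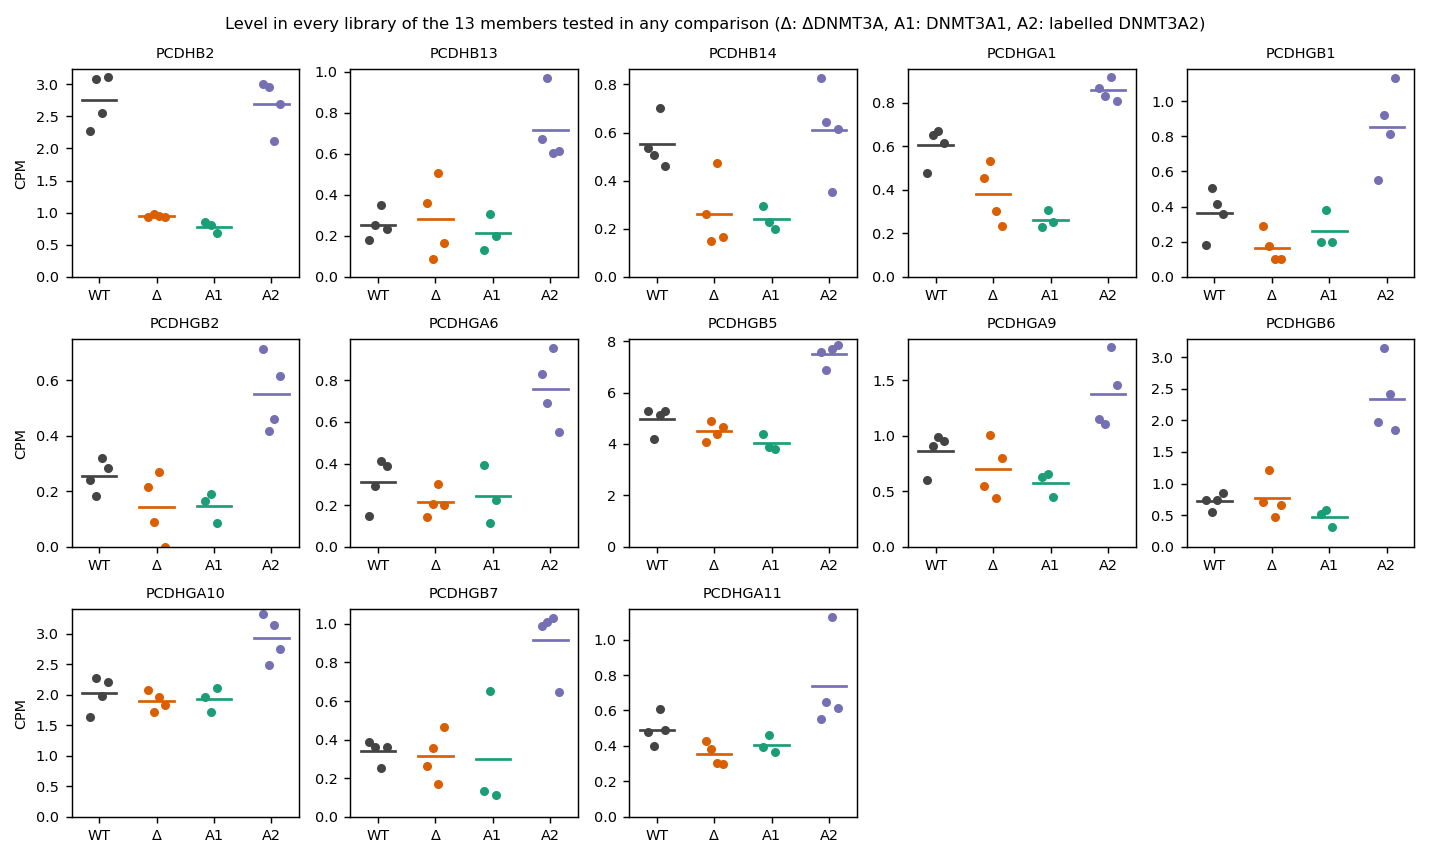
Level in CPM of the 13 members tested in any comparison, with 1 point per library and the mean of each line as a horizontal bar; Δ is ΔDNMT3A, A1 is DNMT3A1 and A2 is the cells labelled DNMT3A2. In the panel of PCDHB2, the ΔDNMT3A and DNMT3A1 libraries lie below 1 CPM and the WT and A2 libraries above 2, whereas in the panel of PCDHGB6 only the A2 libraries stand apart.

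The next comparison asked how reintroduction of DNMT3A1 affected the family. No member passed among the 7 tested between DNMT3A1 and ΔDNMT3A, against 60.7% of all 16860 genes tested. At an unadjusted p under 0.05 there was 1 member, PCDHGB6 (log2 fold change -0.75, SE 0.331, adjusted p = 0.0571), and DESeq2 called 0. PCDHB2 stood at 0.853, 0.804 and 0.676 CPM in DNMT3A1, below each ΔDNMT3A library and far below WT (log2 fold change against ΔDNMT3A -0.29, SE 0.22, adjusted p = 0.268). PCDHGB5 stood at 4.4, 3.9 and 3.8 CPM, overlapping ΔDNMT3A (log2 fold change -0.16, SE 0.11, adjusted p = 0.228). PCDHGA10 stood at 1.97, 1.72 and 2.11 CPM (log2 fold change 0.04, SE 0.157, adjusted p = 0.861). Without ΔDNMT3A replicate 3, PCDHGB6 was called lower (-0.91, adjusted p = 0.019), and without DNMT3A1 replicate 2, PCDHGB7 was (-1.33, adjusted p = 0.041).

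Set against WT, DNMT3A1 cells had 5 of 11 tested members called, all 5 lower, against 65.3% of all genes called and 32.7% called lower. PCDHB14, PCDHGA1, PCDHGB1 and PCDHGA6 were tested here through the WT libraries, and of the 7 members tested in every comparison 3 were called. PCDHB2 was downregulated most (log2 fold change -1.83, SE 0.19, adjusted p = 4.52e-09), followed by PCDHGA1 (-1.20, SE 0.325, adjusted p = 0.00231) and PCDHB14 (-1.19, SE 0.344, adjusted p = 0.00389). PCDHGB6 (-0.66, adjusted p = 0.049) and PCDHGB5 (-0.32, adjusted p = 0.0127) passed narrowly. Without DNMT3A1 replicate 4, neither passed (PCDHGB6 -0.41, adjusted p = 0.289 and PCDHGB5 -0.27, adjusted p = 0.0566), and the count of calls was 3. Neither passed with DESeq2 (adjusted p = 0.187 and 0.0631).

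The cells labelled DNMT3A2 differed from ΔDNMT3A in the opposite direction. Each of the 7 members tested in all 6 comparisons, namely PCDHB2, PCDHGB5, PCDHGA9, PCDHGB6, PCDHGA10, PCDHGB7 and PCDHGA11, was upregulated. With PCDHB13, PCDHB14, PCDHGA1, PCDHGB1, PCDHGB2 and PCDHGA6, 13 of 13 tested members were called higher, where 67.9% of all 16431 genes tested were called and 33.8% were called higher. These last 6 were not tested between DNMT3A1 and ΔDNMT3A and passed the filter here through the libraries labelled DNMT3A2, so their calls add nothing to the others. The median log2 fold change of the 7 was 1.03, and that of all genes was 0.004. Some calls did not pass within a single lane, namely PCDHGA1 (0.79, adjusted p = 0.0551), PCDHGA9 (0.57, adjusted p = 0.151) and PCDHGA11 (0.54, adjusted p = 0.242) within the 5th, and PCDHB13 (0.85, adjusted p = 0.14) and PCDHB14 (0.61, adjusted p = 0.337) within the 6th. Of all 53 members, 40 had a higher and 7 a lower mean CPM than in ΔDNMT3A, and 6 had no count in either line. Most of these members were too low to be tested, and many of the differences rest on single counts. The same share over all genes is not given, so this count describes direction only.

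PCDHB2 stood at 3.0, 2.95, 2.12 and 2.69 CPM in the libraries labelled DNMT3A2, all above ΔDNMT3A (log2 fold change 1.49, SE 0.16, adjusted p = 1.66e-08). These libraries overlapped WT, with a log2 fold change against WT of -0.06 (SE 0.136, adjusted p = 0.713). PCDHB14 did not pass against WT (0.12, SE 0.278, adjusted p = 0.714). It was called higher than in ΔDNMT3A (1.20, SE 0.354, adjusted p = 0.00444), but the libraries of these lines overlapped.

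PCDHGB6 (chr5:141408021-141512979) showed another pattern. It stood at 0.746, 0.543, 0.733 and 0.848 CPM in WT, 0.716, 1.21, 0.473 and 0.664 in ΔDNMT3A, and 0.525, 0.574 and 0.31 in DNMT3A1. In the libraries labelled DNMT3A2 it stood at 1.97, 3.14, 2.41 and 1.85 CPM, above every other library. The log2 fold change was 1.56 against ΔDNMT3A (SE 0.226, adjusted p = 1.73e-06) and 1.64 against WT (SE 0.198, adjusted p = 1.57e-08). Its neighbour PCDHGB5 stood at 7.58, 6.87, 7.71 and 7.87 CPM, again above every other library, but the step was smaller (0.74 against ΔDNMT3A, SE 0.0845, adjusted p = 4.66e-08).

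PCDHGA10, between PCDHGB6 and PCDHGB7, stood at 3.32, 2.49, 3.15 and 2.75 CPM in the libraries labelled DNMT3A2, all above the other 11 libraries, and changed least of the tested members (0.62 against ΔDNMT3A, SE 0.132, adjusted p = 2.38e-04). PCDHGA9 (chr5:141402932-141512979) stood at 1.15, 1.11, 1.8 and 1.46 CPM, against 0.549, 1.01, 0.439 and 0.797 CPM in ΔDNMT3A, where 1 library came close (log2 fold change 1.00, SE 0.242, adjusted p = 8.86e-04). Its WT libraries held 0.597, 0.906, 0.988 and 0.951 CPM, and its DNMT3A1 libraries 0.624, 0.651 and 0.45 CPM. PCDHGB1 had the highest log2 fold change, 2.26 (SE 0.339, adjusted p = 3.01e-06), from 0.166 ± 0.088 CPM in ΔDNMT3A to 0.856 ± 0.242 CPM (SD, n = 4 each). It passed the filter here through the libraries labelled DNMT3A2, so its rank among the members rests on that selection.

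The remaining tested members are given by their ranges. PCDHGA1 ranged from 0.478 to 0.67 CPM in WT, from 0.232 to 0.533 in ΔDNMT3A, from 0.23 to 0.306 in DNMT3A1 and from 0.81 to 0.92 across the libraries labelled DNMT3A2, which stood above all others. PCDHB13 ranged from 0.179 to 0.351 CPM in WT and from 0.0888 to 0.507 in ΔDNMT3A, and from 0.602 to 0.968 across the libraries labelled DNMT3A2. It was called higher in these against ΔDNMT3A (log2 fold change 1.30, SE 0.354, adjusted p = 0.00237) as well as against WT (1.45, SE 0.308, adjusted p = 1.28e-04). PCDHB2 and PCDHB14 of the same cluster did not pass against WT. PCDHB13, PCDHGB2 and PCDHGA6 passed the filter in both comparisons through the libraries labelled DNMT3A2, and PCDHGA1 did so against ΔDNMT3A. Their calls, and the contrast of PCDHB13 with PCDHB2, rest on that selection. PCDHGB2 and PCDHGA6 had log2 fold changes of 1.88 and 1.84 against ΔDNMT3A and of 1.07 and 1.25 against WT. PCDHGB7 and PCDHGA11 had 1.53 and 1.03 against ΔDNMT3A. In DNMT3A1, PCDHGB7 stood at 0.131, 0.651 and 0.113 CPM, so that 1 library reached the range of those labelled DNMT3A2, from 0.648 to 1.03.

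**Figure D4:**
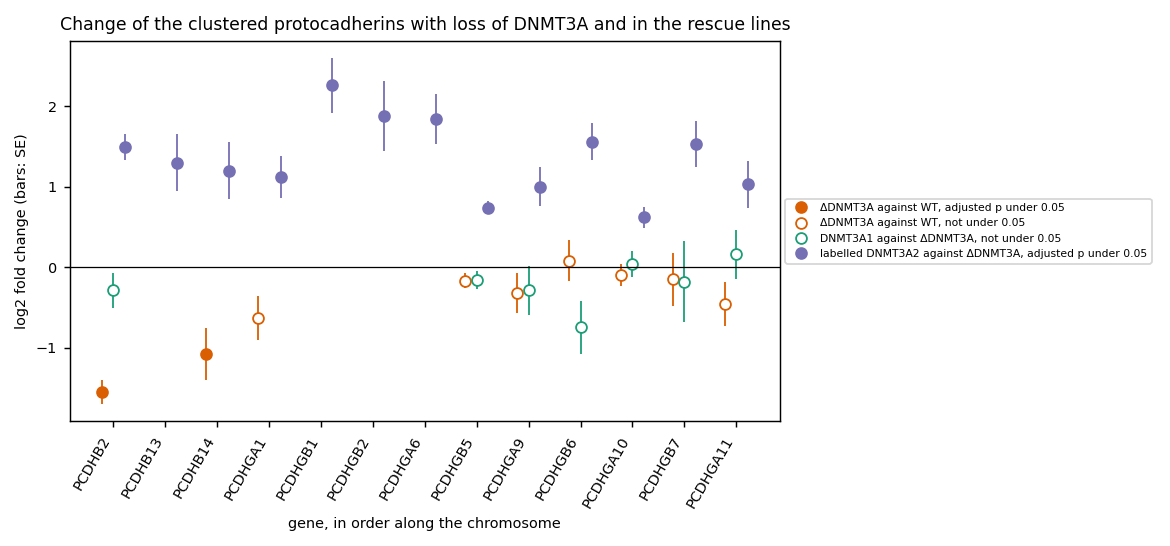
Log2 fold change with its standard error for each tested member in 3 comparisons, in order along chromosome 5; filled points passed an adjusted p of 0.05 by edgeR and open points did not, and a missing point was not tested. All 13 points of the cells labelled DNMT3A2 against ΔDNMT3A lie between 0.62 and 2.26, and those of the other comparisons lie at or below 0.16. Of the 13, 6 passed the filter on low counts through the libraries labelled DNMT3A2, which favours a positive change. These are PCDHB13, PCDHB14, PCDHGA1, PCDHGB1, PCDHGB2 and PCDHGA6.

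The cells labelled DNMT3A2 were also set against WT, which asked whether the family returned to the WT level. Here 9 of 13 tested members were called, all higher, against 68.7% of all genes called and 34.3% called higher. They were PCDHB13 and the PCDHG members PCDHGB1, PCDHGB2, PCDHGA6, PCDHGB5, PCDHGA9, PCDHGB6, PCDHGA10 and PCDHGB7, with log2 fold changes from 0.52 to 1.64. PCDHB2, PCDHB14, PCDHGA1 (0.49, adjusted p = 0.06) and PCDHGA11 (0.57, adjusted p = 0.0681) did not pass. PCDHB13, PCDHGB1, PCDHGB2 and PCDHGA6 were not tested between ΔDNMT3A and WT and passed the filter here through the libraries labelled DNMT3A2. Of the 7 members tested in every comparison, 5 were called higher than in WT, all of them PCDHG genes.

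The isoform lines were then compared directly. Between the cells labelled DNMT3A2 and DNMT3A1, 13 of 13 tested members were called higher in the former, against 68.5% of all genes called and 33.9% called higher. Here too, 6 of the 13 (PCDHB13, PCDHB14, PCDHGA1, PCDHGB1, PCDHGB2 and PCDHGA6) passed the filter through the libraries labelled DNMT3A2. The 7 members tested in every comparison were all called, with log2 fold changes from 0.59 for PCDHGA10 to 2.32 for PCDHGB6 and a median of 1.29. The call of PCDHGA11 (0.87) was lost with DESeq2 (adjusted p = 0.0912) and within the 5th lane (0.48, adjusted p = 0.331), among other settings. Since all comparisons draw on the same 15 libraries, they are not independent of one another.

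Some members below the filter were also examined, chosen after their values were seen. PCDHB11 had 6, 3, 6 and 9 counts in the libraries labelled DNMT3A2, 2, 2, 2 and 4 in WT, 0, 0, 1 and 1 in ΔDNMT3A, and 1, 0 and 0 in DNMT3A1. PCDHB12 had 2, 10, 2 and 6 counts in the libraries labelled DNMT3A2 and at most 2 in any other. Neither carries a fold change here, because the lower groups lie at or under the floor of 3 counts.

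**Figure D5:**
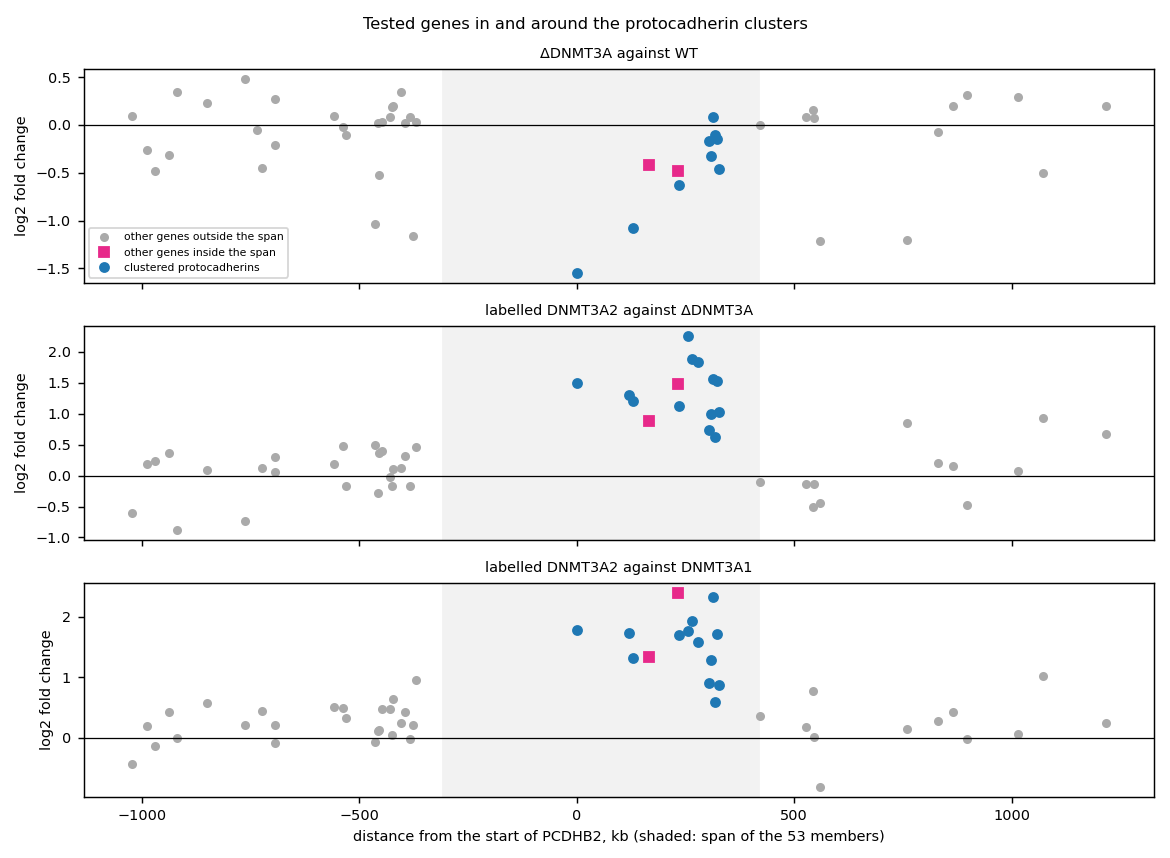
Log2 fold change of every tested gene within 1000000 bases of the members, by distance in kb from the start of PCDHB2, in 3 comparisons; blue points are clustered protocadherins, pink squares are other genes inside their span and grey points are genes outside it. In the lower panels members and pink squares lie above most grey points.

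The genes around the clusters were read to see whether the changes stopped at the members. Of 31 other genes inside the 727 kb span, mostly low lncRNAs and pseudogenes, 2 had enough counts to be tested. Both were called lower in ΔDNMT3A than in WT and higher in the cells labelled DNMT3A2 than in ΔDNMT3A. Both were also called lower in DNMT3A1 than in ΔDNMT3A, where 0 of 7 members were called. TAF7, a subunit of the general transcription factor TFIID that lies between the PCDHB and PCDHG clusters on the minus strand, stood at 130 to 137 CPM in WT, 97.0 to 103 in ΔDNMT3A, 73.0 to 74.3 in DNMT3A1 and 178 to 191 across the libraries labelled DNMT3A2. The 4 lines did not overlap. TAF7 fell in ΔDNMT3A against WT (log2 fold change -0.42, SE 0.0292, adjusted p = 7.16e-12), fell further in DNMT3A1 (-0.44 against ΔDNMT3A, SE 0.0343, adjusted p = 8.93e-10) and rose in the cells labelled DNMT3A2 (0.88 against ΔDNMT3A, SE 0.0278, adjusted p = 3.01e-18).

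The lncRNA ENSG00000272070 (chr5:141326210-141329357), just before PCDHGA1 on the plus strand, took the same order. It stood at 1.16, 1.52, 1.4 and 1.41 CPM in WT, 1.22, 0.917, 0.878 and 0.897 in ΔDNMT3A, 0.558, 0.612 and 0.422 in DNMT3A1, and 2.69, 1.84, 3.11 and 3.3 in the libraries labelled DNMT3A2. Its log2 fold change in the cells labelled DNMT3A2 was 1.48 against ΔDNMT3A (SE 0.181, adjusted p = 1.49e-07) and 2.40 against DNMT3A1 (SE 0.235, adjusted p = 1.28e-09). Counting used the strand, which keeps reads of TAF7 apart from those of the members, whereas this lncRNA lies on the members' strand and is separated from them by position only.

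Outside the span the picture was mixed. Between the cells labelled DNMT3A2 and ΔDNMT3A, 17 of 36 tested flanking genes were higher and 11 lower, with a median log2 fold change of 0.11. Between ΔDNMT3A and WT, 13 of 38 were higher and 9 lower, with a median of 0.03. Between the cells labelled DNMT3A2 and DNMT3A1, 22 of 37 were higher and 1 lower, with a median of 0.22 against 1.29 for the 7 members tested in every comparison. Between DNMT3A1 and WT, 3 of 38 were higher and 21 lower, with a median of -0.23, and between DNMT3A1 and ΔDNMT3A, 6 of 37 were higher and 17 lower, with a median of -0.15. Over all genes, the shares called were 67.9%, 62.2%, 68.5%, 65.3% and 60.7%, in the order in which the comparisons are given here. In these comparisons with DNMT3A1 the flanks thus shifted in the direction of the members' medians, and the part of this regional shift in the members' values was not tested. The flanking genes that fell most in ΔDNMT3A were ARAP3 (-1.21), PCDH1 (-1.20) and VTRNA1-2 (-1.16), each past the threshold.

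Genes known to act on the clusters were read from a list of 25. CTCF and the cohesin subunit RAD21, which together loop the enhancers to the chosen promoters, differed little. CTCF changed by 0.08 in ΔDNMT3A against WT and by 0.12 in the cells labelled DNMT3A2 against ΔDNMT3A (adjusted p = 0.031 and 7.49e-04), and RAD21 by -0.08 and 0.08 (adjusted p = 0.0112 and 0.00258). Larger steps were seen, among genes chosen after their values were seen, for the cohesin loader NIPBL and the cohesin subunit STAG2. In the cells labelled DNMT3A2 against ΔDNMT3A, NIPBL was 0.78 higher (from 75.7 to 130 CPM, adjusted p = 5.7e-14) and STAG2 was 0.46 higher (from 205 to 283 CPM, adjusted p = 6.18e-14). SMCHD1, a chromatin protein that represses the clusters, was 0.13 higher in ΔDNMT3A (adjusted p = 0.00174) and did not pass in the cells labelled DNMT3A2 (-0.05, adjusted p = 0.135). DNMT3B, the other de novo methyltransferase, fell by 0.48 on the log2 scale in ΔDNMT3A (adjusted p = 1.78e-13). The paper, by contrast, describes mRNA of the other DNA methyltransferases as unchanged in its RNA sequencing. DNMT3B was 0.34 higher in the cells labelled DNMT3A2 than in ΔDNMT3A (adjusted p = 7.55e-11). TET3, an enzyme that oxidises methylated cytosine, fell by 0.36 in ΔDNMT3A (adjusted p = 1.06e-06). Its mean was 33.1 CPM in ΔDNMT3A and 51.1 CPM in the cells labelled DNMT3A2, and that of SETDB1 was 50.8 and 67.9 CPM. The rise in these cells was thus not confined to cohesin genes. Over the list, 3 genes were higher and 17 lower in ΔDNMT3A, where 31.0% of all genes were called lower. In the cells labelled DNMT3A2 against ΔDNMT3A 20 were higher and 0 lower, where 33.8% of all genes were called higher. The medians were -0.17 and 0.20.

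Genes listed for the processing enzymes and partners of clustered protocadherins went both ways. Of 27, 23 were tested in ΔDNMT3A against WT, with 11 higher and 9 lower, and 24 in the cells labelled DNMT3A2 against ΔDNMT3A, with 10 higher and 8 lower. The share called over all genes was 62.2% in the former comparison and 67.9% in the latter. WASF1, a subunit of the WAVE actin regulatory complex, rose by 1.53 in ΔDNMT3A (SE 0.0677, adjusted p = 1.3e-15), PDCD10 by 0.72 (adjusted p = 7.69e-15), and NLGN2, a synaptic adhesion protein, fell by 0.62 (adjusted p = 5.11e-06). ADAM10, the sheddase, did not move by more than 0.12 on the log2 scale in any comparison.

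Protocadherins and related cadherins encoded elsewhere did not follow one direction. Of 22, only 7 were tested, with 1 higher and 3 lower in ΔDNMT3A against WT, where 62.2% of all genes were called. PCDH7 fell by 1.86 on the log2 scale (SE 0.0997, adjusted p = 5.78e-14), PCDH1 by 1.20 (SE 0.0889, adjusted p = 2.43e-11), and CDHR2, a cadherin of the brush border, rose by 1.39 (SE 0.147, adjusted p = 1.28e-08). The mean level of PCDH7 was 7.97 ± 0.656 CPM for WT and 2.19 ± 0.252 CPM for ΔDNMT3A (SD, n = 4 each). It was 0.0646 ± 0.0278 CPM for DNMT3A1 (n = 3), at or under the floor, and 27.1 ± 2.05 CPM for the cells labelled DNMT3A2 (n = 4). This is the order of the mean PCDHG sums, with larger steps (3.62 for the cells labelled DNMT3A2 against ΔDNMT3A, SE 0.083, adjusted p = 7.94e-21). PCDH1, which lies beyond the end of the PCDHG cluster, was higher than in ΔDNMT3A both in DNMT3A1 (0.71, adjusted p = 2.79e-06) and in the cells labelled DNMT3A2 (0.85, adjusted p = 7.32e-09). No clustered member was called higher in DNMT3A1.

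Markers were read beside these results. The 10 markers of Caco-2 cells and enterocytes include general epithelial genes such as EPCAM and KRT8. They were present in all lines and summed to 9360 to 9590 CPM in WT, 11900 to 12600 in ΔDNMT3A, 10200 to 10500 in DNMT3A1 and 7990 to 8270 across the libraries labelled DNMT3A2. All 10 were called lower in the cells labelled DNMT3A2 than in ΔDNMT3A, where the members were higher. Of all 16431 genes tested in that comparison, 5611 were called lower. The part of this shift in the result was not tested. The 10 neuronal markers, of cells in which the family is typically transcribed, summed to 8.79 to 10.1 CPM in WT, 9.0 to 10.1 in ΔDNMT3A, 13.8 to 14.7 in DNMT3A1 and 7.0 to 7.78 across the libraries labelled DNMT3A2. Of these 10, 6 or 7 stayed at or under the floor in every library of a line, so each sum rests on few genes. Only 3 were tested, and they did not agree. In DNMT3A1 against WT, 1 was called higher and 2 lower, where 65.3% of all genes were called. The neuronal sum was lowest in the libraries labelled DNMT3A2, and its part in the result was not tested. Fibroblast markers summed to 28.7 to 54.2 CPM over all libraries and were highest in WT, and markers of blood and vessels summed to 5.65 to 27.7 CPM and were lowest in the libraries labelled DNMT3A2.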

How the data were processed

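RNA from Caco-2 cells was sequenced as paired reads with a stranded total RNA protocol, trimmed with Trim Galore 0.4.4 and aligned with STAR 2.5.2b, per the submitters' processing notes. The authors deposited raw read counts per gene from featureCounts 1.5.2 (GRCh38, reverse-stranded, pairs that overlap more than 1 gene left out, per the file headers). Symbols were assigned from a GENCODE annotation for 98.1% of 58051 identifiers. The 53 members and all gene lists were chosen with earlier results of these data known. Genes were named with values in every library where a line averaged at least 1 CPM. Further genes are named by counts, and from other lists DNMT3A, DNMT3B, SMCHD1, CTCF, RAD21 and up to 3 genes with the largest significant change in ΔDNMT3A against WT.

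Each of 6 comparisons was fitted on its 2 lines with edgeR 4.0.16 (R 4.3.3; filterByExpr, TMM, quasi-likelihood test); p-values were adjusted over every tested gene by Benjamini-Hochberg, and the threshold was 0.05. The standard error is the absolute log2 fold change divided by the square root of F. CPM uses TMM-scaled library sizes over all 15 libraries. Totals were 22104408 to 42161299 counts, with a median of 30442451, and members of few counts carry large errors. Fits were tested on simulated data in the layout of ΔDNMT3A against WT. Changes were planted only in genes with more counts than many members have, so the simulation does not cover members of few counts. Alternatives were DESeq2 1.42.0, its size factors, no filter, 1 fit over all 4 lines, a replicate block, a minimum log2 fold change of 1, single lanes and leaving out each library. Library pairs within a line differed by more than sampling noise. Replicate 3 of DNMT3A1, and the mouse libraries of the series, were not analysed here. RefSeq promoters were missing for 6 members.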

Additional observations from a re-analysis of the deposited data

Results flagged for a closer look

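The difference from ΔDNMT3A was not the same in DNMT3A1 and in the cells labelled DNMT3A2, by the test of the latter against DNMT3A1. This held for PCDHB2 (log2 fold change 1.78), PCDHB13 (1.74), PCDHB14 (1.32), PCDHGA1 (1.70), PCDHGB1 (1.76), PCDHGB2 (1.93), PCDHGA6 (1.58), PCDHGB5 (0.90), PCDHGA9 (1.29), PCDHGB6 (2.32), PCDHGA10 (0.59), PCDHGB7 (1.71) and PCDHGA11 (0.87). All were higher in the cells labelled DNMT3A2. PCDHB13, PCDHB14, PCDHGA1, PCDHGB1, PCDHGB2 and PCDHGA6 passed the filter on low counts through these libraries. The call of PCDHGA11 was lost with DESeq2 (adjusted p = 0.0912), with the replicate block (0.58, adjusted p = 0.15) and within the 5th lane (0.48, adjusted p = 0.331).

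Of 39 groups of 4 libraries examined over the 13 tested members, 3 held a library far from the other members of its group. Chance alone marks about 1 in 20 groups. WT replicate 2 had 4.2 CPM of PCDHGB5 where the other WT libraries had 5.13 to 5.3, and without it PCDHGB5 was called lower in ΔDNMT3A than in WT (-0.24, adjusted p = 0.037). Among the libraries labelled DNMT3A2, replicate 4 had 0.648 CPM of PCDHGB7 against 0.987 to 1.03, and replicate 3 had 1.13 CPM of PCDHGA11 against 0.553 to 0.646. Without that replicate 3, PCDHGA11 no longer differed between the cells labelled DNMT3A2 and DNMT3A1 past the threshold (log2 fold change 0.57, adjusted p = 0.116 by edgeR).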

How the results depend on the processing

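Across the alternatives, 611 of 653 repeats of the 42 significant member and comparison pairs stayed significant in the same direction, 42 lost significance, and none changed sign. Of the 611, 308 left out 1 library and so share most libraries with the main fit, which raises the pooled share. Losses were more frequent elsewhere, with 11 at a log2 fold change of at least 1 and 8 within the 5th lane. The count of members called in ΔDNMT3A against WT was 2 and became 4 with all 4 lines in 1 fit, which added PCDHGA1 and PCDHGB1, and ranged from 2 to 4 on leaving out a library (4 without WT replicate 1). In DNMT3A1 against ΔDNMT3A the count was 0 and became 1, PCDHGB6, with no filter, with all 4 lines in 1 fit and with the replicate block, and ranged from 0 to 1 on leaving out a library (PCDHGB6 without ΔDNMT3A replicate 3, and PCDHGB7 without DNMT3A1 replicate 2). In DNMT3A1 against WT it was 5 and became 3 with DESeq2, 3 at a log2 fold change of at least 1 and 2 within the 5th lane, and ranged from 3 to 6 on leaving out a library (3 without DNMT3A1 replicate 4). The cause of these changes was not tested. The counts for the cells labelled DNMT3A2 ranged on leaving out a library from 13 to 13 against ΔDNMT3A, from 9 to 10 against WT and from 12 to 13 against DNMT3A1. Replicate numbers did not pair the samples, since deviations of same-numbered libraries correlated at -0.0328 to 0.0553 and 0 of 21 pairs exceeded 0.1. With the replicate block the counts were 3, 1, 13, 4, 9 and 12 in the order in which the comparisons were fitted, from ΔDNMT3A against WT to the cells labelled DNMT3A2 against DNMT3A1. DNMT3A1 has 1 library in the 6th lane, which is assumed to vary like the other line. Without the filter, 19 members were called in the cells labelled DNMT3A2 against ΔDNMT3A, all higher. Over all genes at this setting, 11833 of 33664 were called, 5763 of them higher. The calls added were PCDHB4, PCDHB11, PCDHB12, PCDHGA4, PCDHGA5 and PCDHGB4. These have few or no counts in ΔDNMT3A, so their calls rest on the libraries where they are high and add nothing to the others. Members of few counts had large errors, and at this depth changes of silent members, PCDHA included, were not detectable.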
